A study of Mus musculus with 12 samples.

Results

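Normal hepatocytes, the cells that the authors named NormalHeps, numbered 1613 of the 6573 annotated hepatocytes and were the most numerous of 8 named types. They were chosen by that name alone. No cell of the myeloid table carried it, so they were 1613 of 14807 cells when both tables are counted. The hepatocyte table holds the library, cell type, cluster and map position of each cell and no value per gene. The name was therefore not checked against the hepatocyte markers Alb, Cps1, Cyp2e1, Cyp2f2 and Hnf4a, and the results describe in which libraries and clusters these cells were found and which cells lay near them on the authors' map.

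Hepatocytes make most plasma proteins, detoxify ammonia through the urea cycle and drugs through cytochrome P450 enzymes, and secrete bile. Their tasks differ along the liver lobule, with urea synthesis strongest near the portal vein and much P450 metabolism near the central vein, so a healthy liver already holds several hepatocyte states. Under DDC, a diet that raises porphyrins and damages bile ducts, hepatocytes can lose mature functions and express Sox9, a transcription factor that marks bile ducts. The authors called such cells liver progenitor-like cells (LPLCs), with names for cells before and after that stage (PreLPLCs, PostLPLCs1 and PostLPLCs2), and also named injured (InjuredHeps1, InjuredHeps2) and proliferating (ProliHeps) hepatocytes.

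The CLO pool was 1 droplet (10X) library of 1446 hepatocytes from livers at day 0 and day 7 of DDC with CLO treatment, an agent that the labels do not spell out. The pool without CLO was 1 library of 4800 hepatocytes from the same days. Each pool joined 2 mice per day. Normal-diet mice were Rosa26-mTmG and DDC mice were wild type, on C57BL/6J;129S6/SvEvTac, and the sources used here do not give the mouse or diet of a single cell. Smart-seq2 libraries came from Sox9-EGFP mice on FVB/N;129S6/SvEvTac, with the strain tag of day 7 replicate 3 reading FVB/N;129S7/SvEvTac, and they held 82, 47 and 45 cells at day 7, 39 and 26 cells of mixed day 3 and day 7, 45 cells of mixed day 0 and day 7, and 43 cells at day 0. The label of the day 0 library gives 1 mouse on normal diet, while its cells bear a set name for 1 week of DDC in the deposited table, as do those of every Smart-seq2 library. Cells of injured Smart-seq2 livers were sorted by size and by the GFP that marks Sox9 use. UMIs and genes per cell were not analysed here, so precision rests on numbers of cells, and all intervals are 95% intervals for counting error only.

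NormalHeps numbered 367 in the CLO pool and 1194 in the pool without CLO. Smart-seq2 gave 52 NormalHeps, 3.22% of the total, where it gave 327 of all 6573 cells (4.97%), and 28 of the 52 came from the day 0 library. All 8 of their clusters, numbers 0, 11, 12, 14, 15, 22, 23 and 24, held cells of both pools. A single barcode sequence was shared between the pools, and both cells that carried it were NormalHeps.

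**Figure D1:**
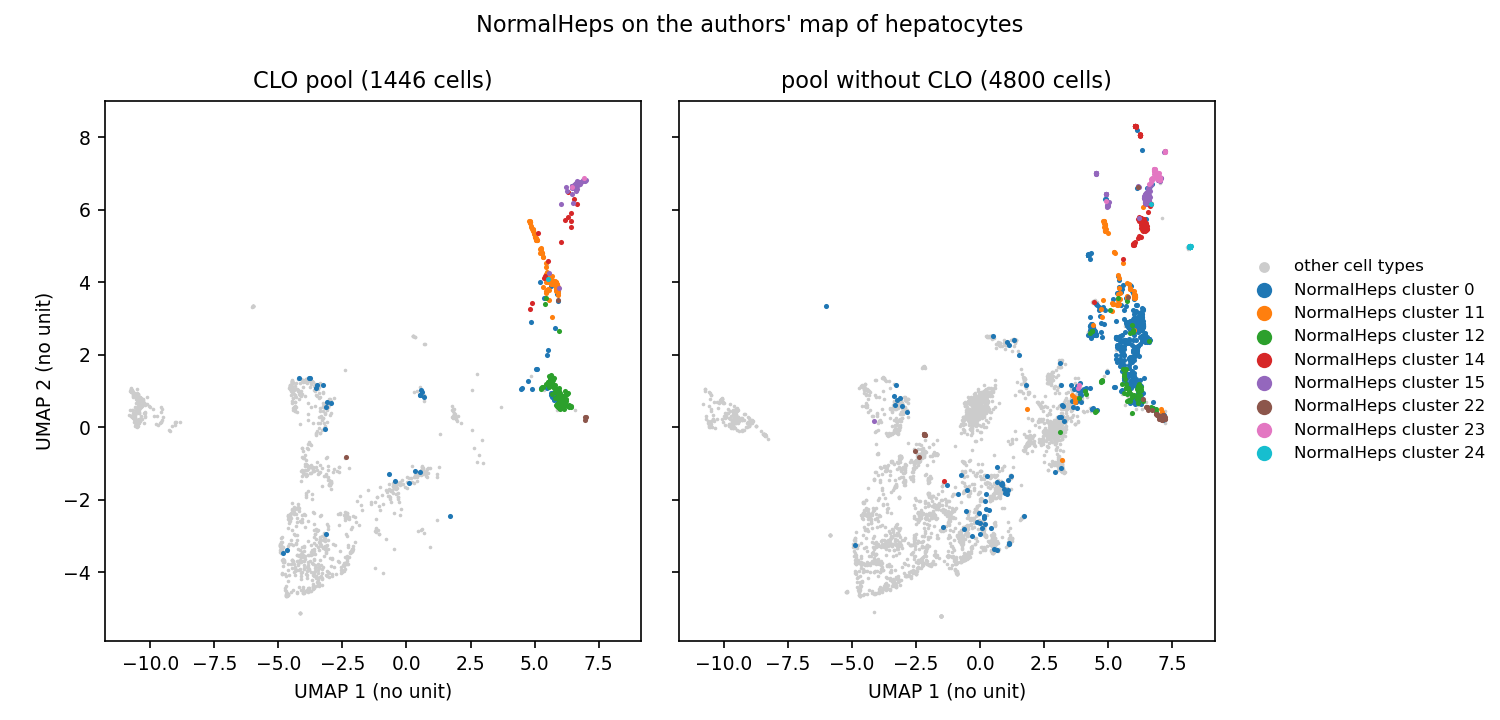
Position of every 10X hepatocyte on the authors' UMAP map, with axes that have no unit, in the CLO pool (left) and the pool without CLO (right). NormalHeps are coloured by authors' cluster and other types are grey. Most NormalHeps form a column at the right edge, in which cluster 0 fills the middle without CLO and is sparse with CLO, and some cells of cluster 0 lie among other types in both panels.

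Of all cells of each pool about the same share were normal hepatocytes, while their division over the clusters differed. NormalHeps made up 25.4% (23.2 to 27.7) of the CLO pool and 24.9% (23.7 to 26.1) of the pool without CLO, a difference of 0.51 percentage points (-2.0 to 3.11). The difference depended on which cells were counted. It was 3.72 points (0.92 to 6.61) without ProliHeps, and 27.2 points (22.7 to 31.3) among NormalHeps, InjuredHeps1 and InjuredHeps2 alone. Within NormalHeps, cluster 0 held 14.99% (11.5 to 19.1) of the cells in the CLO pool, against 53.1% (50.2 to 56.0) in the pool without CLO. Cluster 12 was the main cluster with CLO, with 34.3% (29.5 to 39.4) of NormalHeps in the CLO pool and 6.03% (4.75 to 7.53) in the pool without CLO. Cluster 11 held 27.5% (23.0 to 32.4) with CLO and 6.37% (5.05 to 7.90) without.

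Cluster 15 was the third cluster with a larger share with CLO, at 16.9% (13.2 to 21.1) of NormalHeps in the CLO pool against 8.21% (6.71 to 9.91) in the pool without CLO. These shares are parts of the same whole, so the lower share of cluster 0 with CLO left more to the other clusters. Among NormalHeps outside cluster 0, cluster 15 held 62 of 312 cells in the CLO pool and 98 of 560 in the pool without CLO. Whether cluster 15 was higher with CLO apart from the change in cluster 0 was not tested. Together clusters 11, 12 and 15 held 78.7% of NormalHeps in the CLO pool and 20.6% in the pool without CLO. The other clusters had smaller shares with CLO. Cluster 14 held 4.09% in the CLO pool and 13.3% in the pool without CLO. Cluster 22 held 5 of 367 cells (1.36%) in the CLO pool against 60 of 1194 (5.03%) in the pool without CLO. Cluster 23 held 2 cells (0.545%) with CLO against 51 (4.27%) without, and cluster 24 held 1 (0.272%) with CLO against 44 (3.69%) without.

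**Figure D2:**
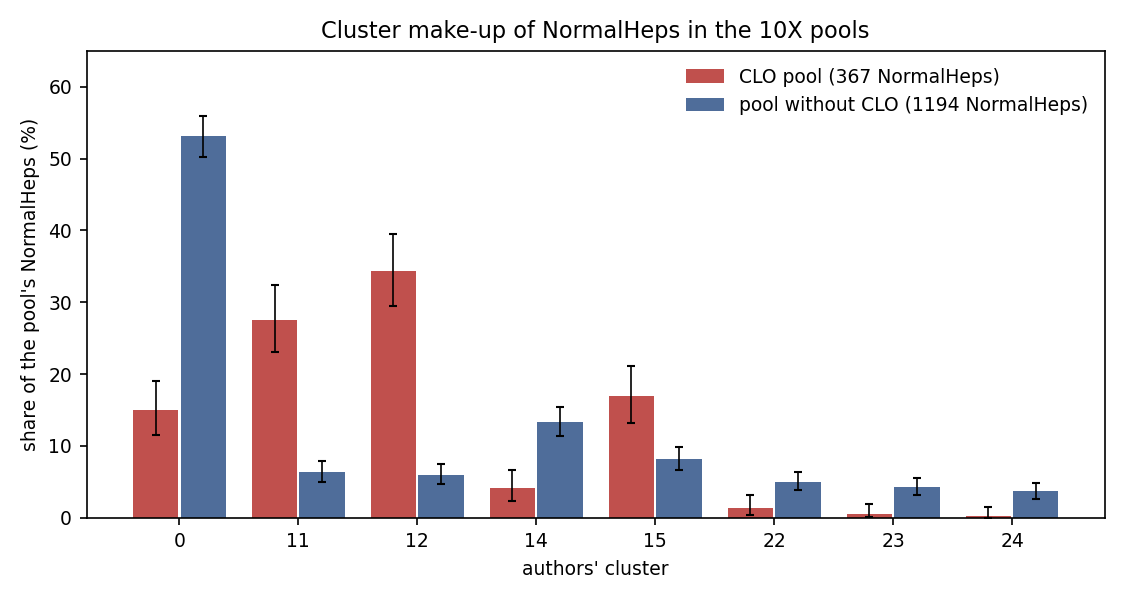
Share of each pool's NormalHeps in each authors' cluster, in percent, with exact 95% intervals for counting error as bars. Clusters 11, 12 and 15 held larger shares in the CLO pool, and clusters 0, 14, 22, 23 and 24 in the pool without CLO.

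For 8 of 8 NormalHeps clusters the interval of the difference in share left out 0, 3 higher and 5 lower with CLO. The same held for 15 of the 23 clusters of all types with more than 1 cluster, a background of 65.2% (30.4% higher and 34.8% lower with CLO). The 23 include the 8 of NormalHeps. Calls within a type are not independent, and those of InjuredHeps2 and ProliHeps, with 2 clusters each, mirror each other. The difference in make-up can be put in 1 number, the part of NormalHeps that would have to change cluster for the pools to match. It was 58.1 percentage points (53.1 to 62.6) for NormalHeps. For PostLPLCs2 it was 51.0 points (37.7 to 61.5), for InjuredHeps2 32.3 points (23.8 to 40.0), for InjuredHeps1 22.3 points (5.16 to 45.3, on 18 CLO cells) and for ProliHeps 14.6 points (6.53 to 22.5). PostLPLCs1, whose 4 clusters could also have differed, gave 4.96 points (-0.97 to 10.9). The intervals of NormalHeps and PostLPLCs2 overlap, and this measure can grow with the number of clusters, of which NormalHeps had the most. Each interval is that of the summed share of the clusters higher with CLO, which were picked from the same counts. The intervals leave out that choice and can pass below 0, which the measure itself cannot. Counting error can raise the measure, most where cells are few, as for InjuredHeps1.

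NormalHeps of the CLO pool were also spread more evenly over their clusters, as were the 5 other types with more than 1 cluster. The effective number of clusters, which would be 8 for equal shares, was 4.06 for NormalHeps in the CLO pool and 3.13 in the pool without CLO. For PostLPLCs2, with 3 clusters, it was 2.65 with CLO and 1.51 without, for ProliHeps, with 2 clusters, 1.75 with CLO and 1.38 without, and the gap was smallest for InjuredHeps2, at 1.82 with CLO and 1.80 without. Each pool was 1 library and 1 batch, so no test over samples was possible, and CLO and batch cannot be told apart. With cluster 0 left out the NormalHeps share was 8.99 points higher (6.62 to 11.5) with CLO, while the difference was -5.47 points (-7.82 to -2.99) with cluster 12 left out and -3.89 points (-6.27 to -1.38) with cluster 11 left out.

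CLO cells were also unevenly spread around the cells of a cluster. The 15 nearest NormalHeps of both pools could belong to any cluster, so mixing inside a cluster was not measured. Within the pool without CLO, for example, 49.4% of the cells around cluster 12 belonged to cluster 0. Of the 15 NormalHeps nearest to a cell of cluster 12, 66.2% were CLO cells around CLO cells and 32.4% around cells without CLO, where CLO cells were 63.6% of the cluster. In cluster 11 the values were 71.0% around CLO cells and 31.6% around cells without CLO, with CLO cells 57.1% of the cluster. Cluster 15 had the widest gap of the clusters with over 20 CLO cells, at 72.8% around CLO cells and 10.3% around cells without CLO. CLO cells were 38.8% of that cluster. In cluster 0, where CLO cells were 7.98%, the values were 41.0% around CLO cells and 9.86% around cells without CLO.

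On the map, normal hepatocytes were a well-separated group. Among the 15 nearest cells of the same pool, NormalHeps had 92.8% NormalHeps in the CLO pool and 89.7% in the pool without CLO, where they were 25.4% of all cells with CLO and 24.9% without. ProliHeps were as separate or more so in the CLO pool, with 96.3% of neighbours of their own name, and had 88.9% without CLO. InjuredHeps1 had 14.4% with CLO, on 18 cells, and 89.8% without. PostLPLCs1 had 80.0% with CLO and 72.2% without, PostLPLCs2 had 42.9% with CLO and 78.4% without, and InjuredHeps2 had 62.7% with CLO and 77.4% without. LPLCs had 73.4% with CLO and 74.2% without, and PreLPLCs had 58.6% with CLO and 65.2% without. Every neighbour was a NormalHeps cell for 303 of 367 NormalHeps (82.6%) in the CLO pool and 801 of 1194 (67.1%) in the pool without CLO. Map, clusters and names derive from the same values, so these numbers describe the map and test nothing.

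The types that bordered NormalHeps differed between the pools. In the CLO pool the neighbours with another name were PostLPLCs1 in 42.3%, InjuredHeps2 in 32.2%, PostLPLCs2 in 13.9%, InjuredHeps1 in 6.55% and LPLCs in 5.04%. In the pool without CLO they were InjuredHeps1 in 48.8%, InjuredHeps2 in 27.9%, PostLPLCs2 in 12.4%, PostLPLCs1 in 8.81% and LPLCs in 1.03%. These numbers follow in part the make-up of each pool, since InjuredHeps1 were 1.67% of the other-named cells in the CLO pool and 26.8% in the pool without CLO.

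Set against how common each type was, both injured types were met around NormalHeps more often than their share in both pools, and LPLCs less often. InjuredHeps1 were met 3.93 times as often as their share of other-named cells in the CLO pool, on 18 InjuredHeps1 cells, and 1.82 times as often in the pool without CLO. InjuredHeps2 were met 2.24 times as often with CLO and 1.31 times without. PostLPLCs1 were near their share with CLO, at 0.951 times, and under it without, at 0.576 times. LPLCs were met 0.490 times as often with CLO and 0.188 times without. No PreLPLCs or ProliHeps were among the neighbours in the CLO pool, and both were met rarely in the pool without CLO, at 0.116 times their share for PreLPLCs and 0.120 times for ProliHeps. PostLPLCs2 were met 2.67 times as often as their share with CLO and 0.574 times without.

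Most of the normal hepatocytes that lay among other types belonged to cluster 0, 24 of 25 in the CLO pool and 84 of 109 in the pool without CLO. Fewer than 50% of the 15 nearest cells were NormalHeps for 24 of 55 cluster 0 cells in the CLO pool (43.6%, 30.3 to 57.7) and for 84 of 634 in the pool without CLO (13.2%, 10.7 to 16.1). The difference was 30.4 percentage points (17.8 to 43.7). It depends on the base, since cluster 0 was 55 of 367 NormalHeps with CLO and 634 of 1194 without. Of all NormalHeps, the cluster 0 cells among other types were 24 of 367 with CLO and 84 of 1194 without. In the pool without CLO, lying among other types was not a trait of cluster 0 alone. It held there for 10 of 60 cells of cluster 22 (16.7%, 8.29 to 28.5) and 7 of 76 cells of cluster 11 (9.21%, 3.78 to 18.1). In the other clusters together this held for 1 of 312 cells with CLO (0.321%) and 25 of 560 without (4.46%), a difference of -4.14 points (-6.20 to -2.10) in the opposite direction. Over all clusters the values were 6.81% (4.46 to 9.89) with CLO and 9.13% (7.56 to 10.9) without, and the interval of that difference included 0 (-5.10 to 1.08).

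**Figure D3:**
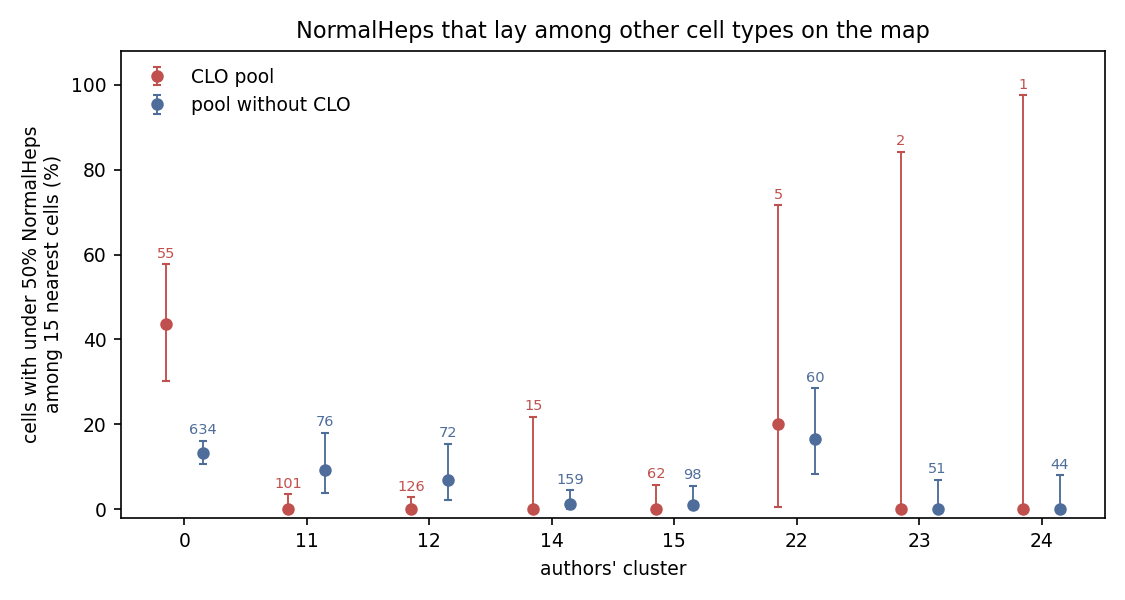
Percent of NormalHeps, by authors' cluster and pool, for which fewer than 50% of the 15 nearest cells of the same pool were NormalHeps, with exact 95% intervals for counting error and the number of cells above each bar. Cluster 0 stands at 43.6% in the CLO pool and 13.2% in the pool without CLO, and clusters 22, 23 and 24 have 5 or fewer CLO cells.

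The types around these cells differed between the pools. Of the 25 in the CLO pool, 13 had PostLPLCs1 as the commonest neighbour, 6 had InjuredHeps2, 5 had PostLPLCs2 and 1 had LPLCs. Of the 109 in the pool without CLO, 48 had InjuredHeps1, 40 had InjuredHeps2, 10 had PostLPLCs2, 9 had PostLPLCs1, 1 had LPLCs and 1 had NormalHeps, the commonest single name though under 50%. None had PreLPLCs or ProliHeps. The sources used here do not say how doublets were treated, and their part in these cells was not tested.

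The reverse was rare. Only 6 of 1079 cells of other types in the CLO pool (0.556%, 0.204 to 1.21) had mostly NormalHeps around them, and 52 of 3606 in the pool without CLO (1.44%, 1.08 to 1.89). Of those 52, 30 were InjuredHeps1 and 17 were PostLPLCs2.

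Some clusters of normal hepatocytes bordered each other and others stood apart. Clusters 15 and 23 were neighbours in the pool without CLO, where 23.8% of the cells around cluster 23 belonged to cluster 15 and 13.3% of those around cluster 15 to cluster 23. Cluster 24 stood apart there, with 93.8% of its neighbours in the same cluster, as did cluster 14 with 91.6%. Clusters 11 and 12 had more neighbours of their own cluster with CLO. Of the cells around cluster 12, 89.8% were cluster 12 in the CLO pool and 32.3% in the pool without CLO, where 49.4% were cluster 0. Of those around cluster 11, 90.0% were cluster 11 in the CLO pool and 55.6% in the pool without CLO, where 24.6% were cluster 0. Clusters 0 and 14 went the other way. Own-cluster cells made up 15.9% of the neighbours of cluster 0 in the CLO pool and 73.9% in the pool without CLO, and for cluster 14 they made up 23.6% in the CLO pool and 91.6% in the pool without CLO. Cluster 14 had 15 CLO cells, so that no cell of it could have more than 14 such neighbours. Cluster 0 had 55 cells with CLO and 634 without, and the part of cluster size in these values was not tested.

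The 5 cells of cluster 22 in the CLO pool, too few to compare, had 76.0% NormalHeps, 12.0% PostLPLCs1 and 9.33% PostLPLCs2 around them. Its 60 cells in the pool without CLO had 88.1% NormalHeps and 10.1% PostLPLCs2 around them. Clusters 14 and 15 were nearly pure in both pools. NormalHeps made up 99.6% of the cells around cluster 14 in the CLO pool and 97.7% in the pool without CLO, and for cluster 15 they made up 99.9% in the CLO pool and 98.4% in the pool without CLO. Such values were not particular to these clusters. Clusters 23 and 24 had 97.9% and 96.4% without CLO. Clusters 11 and 12 had 99.3% and 99.0% with CLO, but 88.2% and 89.7% without.

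The Smart-seq2 libraries set day 7 of DDC against day 0. NormalHeps were 0 of 82, 4 of 47 and 0 of 45 cells in day 7 replicates 1, 2 and 3, and 28 of 43 cells at day 0 (65.1%, 49.1 to 79.0). The mean was 2.84% ± 4.91 (SD, n = 3) at day 7, a difference of -62.3 percentage points from day 0. The exact intervals of the counts of 0 reached 4.40% in replicate 1 and 7.87% in replicate 3, and the smaller limit of 3 cells, close to a one-sided 95% limit, was 3.66% in replicate 1 and 6.67% in replicate 3. Every day 7 library therefore lay under the day 0 interval. The 3 libraries came from at most 2 mice and the day 0 library from 1, so no test was made. The protocol names a GFP sort for injured livers, so effects of day and of the sort cannot be told apart. Batch 1 held the day 0 library together with replicates 2 and 3 of day 7, and within it the day 7 mean was 4.26%.

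In the mixed libraries NormalHeps were intermediate or few. They were 18 of 45 cells (40.0%, 25.7 to 55.7) in the library of mixed day 0 and day 7. They were 0 of 39 and 2 of 26 cells in the libraries of mixed day 3 and day 7, and for 0 of 39 the exact interval reached 9.03% and the limit of 3 cells was 7.69%. The sources used here do not give the day of a single cell in these libraries.

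**Figure D4:**
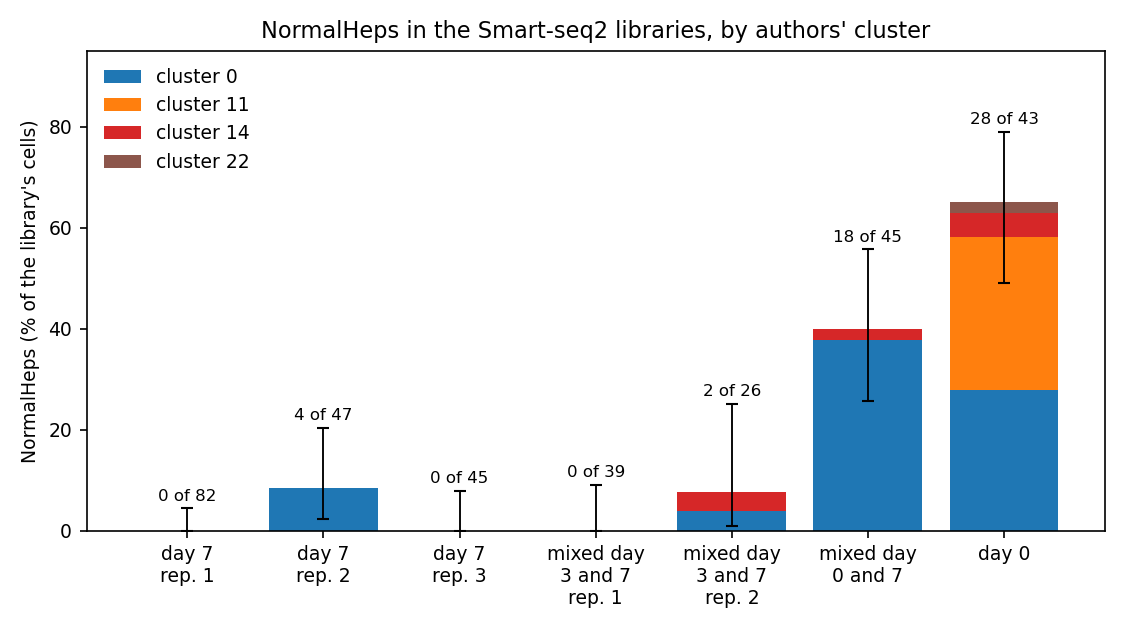
NormalHeps as a percent of the cells of each Smart-seq2 library, split by authors' cluster, with exact 95% intervals for the total and the number of cells above each bar. The day 0 library stands highest at 65.1% and is the only Smart-seq2 library with cluster 11 cells, while the library of mixed day 0 and day 7 holds nearly only cluster 0.

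The normal hepatocytes of Smart-seq2 used 4 of the 8 clusters. In the day 0 library 13 of 28 were in cluster 11 (46.4%, 27.5 to 66.1), 12 in cluster 0 (42.9%, 24.5 to 62.8), 2 in cluster 14 and 1 in cluster 22. In the mixed day 0 and day 7 library 17 of 18 were in cluster 0 (94.4%, 72.7 to 99.9), 1 was in cluster 14 and none was in cluster 11, for which the limit of 3 cells was 16.7%. The intervals of the cluster 11 share did not overlap between these libraries (exact interval 0 to 18.5 in the mixed library), while a title gives 1 mouse for all normal-diet Smart-seq2 cells. All 4 NormalHeps of day 7 replicate 2 were in cluster 0. Clusters 12, 15, 23 and 24, which held 52.0% of NormalHeps in the CLO pool and 22.2% in the pool without CLO, had no Smart-seq2 cell, and for 0 of 28 cells at day 0 the limit of 3 cells was 10.7% for each.

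Most Smart-seq2 cells with this name lay near 10X cells of the same name on the map. Clusters came from integrated data, and map, clusters and names derive from the same values. The placements therefore describe the map and test nothing. For 28 of 28 day 0 cells (100%, 87.7 to 100) and 18 of 18 cells of the mixed day 0 and day 7 library (100%, 81.5 to 100), NormalHeps was the commonest type among the 15 nearest 10X cells. This was not particular to the name in the day 0 library, where it also held for 9 of 15 other-named cells (60%, 32.3 to 83.7), 7 of 9 InjuredHeps2 among them, while in the mixed day 0 and day 7 library it held for 2 of 27. The 4 cells of day 7 replicate 2 were split, with 2 among 10X NormalHeps of cluster 11 and 2 among InjuredHeps2 of cluster 5. The 2 cells of the mixed day 3 and day 7 library both lay among NormalHeps.

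Many Smart-seq2 NormalHeps lay among 10X NormalHeps of another cluster. The commonest 10X cluster was the cell's own for 16 of 28 day 0 cells and for 7 of 18 cells of the mixed day 0 and day 7 library. All 13 cluster 11 cells of day 0 lay among 10X cluster 11, but of the 12 cluster 0 cells only 2 lay among 10X cluster 0, with 6 among cluster 11, 3 among cluster 12 and 1 among cluster 22. In the mixed day 0 and day 7 library 9 of 17 cluster 0 cells lay among 10X cluster 11.

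The labels of the Smart-seq2 libraries name no CLO. CLO cells made up 48.6% of the 10X neighbours of day 0 NormalHeps and 32.2% of those of the mixed day 0 and day 7 library, against 23.5% of all 10X NormalHeps. They made up 23.3% around the 4 cells of day 7 replicate 2. Around other-named cells the CLO share was 54.2% at day 0, 38.0% in the mixed day 0 and day 7 library, and 44.8%, 54.1% and 53.5% in day 7 replicates 1, 2 and 3. NormalHeps had the lower share in each of the 3 libraries named with both. The types have unlike bases, however. The 10X PostLPLCs1 numbered 480 with CLO and 552 without, and ProliHeps 212 with CLO and 212 without, against 367 and 1194 NormalHeps. The part of cell type in the lower share was not tested. The mouse strain, genotype and platform of Smart-seq2 cells all differ from those of the pools, and their part in these values was not tested.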

How the data were processed

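Both deposited tables, of hepatocytes and of myeloid cells, were used. Per the submitters' processing notes, the tools named are STAR 2.5.2b, Cell Ranger 6.0.1, UMI-tools, HTSeq 0.6.0, Trimmomatic 0.36, Seurat 4.0.1 and cutadapt 1.14, with build mm10 and no role stated. Per the file headers, clusters came from integrated data. The map positions deposited by the authors are a UMAP score without unit. The sources used here name no filter on cells, and all annotated cells were kept.

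Members, comparisons and neighbour measures were chosen with earlier results of these data known. Shares carry exact Clopper-Pearson intervals and differences Newcombe intervals. A count of 0 was also given the limit that 3 cells set, which is below the upper end of the two-sided exact interval. The nearest 15 cells were taken by distance on the map, within 1 library unless stated, and ties for the commonest name went to the nearest cell. Intervals and neighbour counts were tested on simulated data. Libraries held 26 to 4800 cells, and the Smart-seq2 libraries of day 3 alone were not analysed here. No value per gene was used, so no gene, promoter or protein sequence is shown, and every cluster with NormalHeps is named. Computation used scikit-learn 1.9.0, scipy 1.17.1, numpy 2.4.6, matplotlib 3.10.9 and pandas 2.3.3 under Python 3.11.15.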

Additional observations from a re-analysis of the deposited data

How the results depend on the processing

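Of 55 alternative values, 46 stayed within the interval or SD of the reported value, 9 moved out of it and none was labelled as reversed. Most could not reverse, since percentages and the make-up measure cannot pass below 0. The pool difference in share had no called direction, and it took both signs. For mean neighbour percents the interval treated each cell as 1 yes-or-no count, which such a mean is not. In the mixed day 0 and day 7 library it was 65.3 to 98.6 around 86.3%, where the SD over cells was 1.57. The NormalHeps difference between the pools (CLO minus without) depended on the denominator: it was 3.72 points without ProliHeps, 27.2 points among NormalHeps and injured types alone, 8.99 points without cluster 0, -3.89 points without cluster 11 and -5.47 points without cluster 12. The difference in make-up was 48.7 points without cluster 0, an alternative chosen after seeing the data. So was leaving the cells of cluster 0 out of the neighbour measure, which gave 98.9% NormalHeps neighbours in the CLO pool and 94.4% in the pool without CLO. The alternatives for cluster 0 cells among other types were also chosen after seeing the data. With 30 nearest cells the mixed day 0 and day 7 library gave 56.7%, since each of its 18 NormalHeps has only 17 others. Leaving out each day 7 library gave differences from day 0 of -65.1 to -60.9 points. The other cluster column was identical. The 50 nearest cells, and numbers scaled to library size, were not run for Smart-seq2 libraries, which hold too few cells. No paired analysis was possible because the groups compared share fewer than 2 replicate numbers, with 1 library at day 0 and 1 in each pool. Numbers of cells limit clusters 22, 23 and 24 in the CLO pool and all of Smart-seq2.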

Other observations

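Beside InjuredHeps2, other-named cells of the Smart-seq2 day 0 library with NormalHeps as the commonest type among the 15 nearest 10X cells were 2 of 4 PostLPLCs2 cells and 0 of 2 PostLPLCs1 cells. In day 7 replicates 1, 2 and 3 the same held for 1 of 82, 0 of 43 and 0 of 45 other-named cells.

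In the day 0 library the cell barcode numbers of the main clusters overlapped, from 2 to 45 with a median of 13 in cluster 0 and from 1 to 49 with a median of 27 in cluster 11. The myeloid pool shared 2 barcode sequences with the CLO pool, none of a NormalHeps cell, and 6 with the pool without CLO, of which 2 were NormalHeps.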
